A study of Mus musculus with 3 samples.

Results

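Cytochrome P450 genes were followed in mouse skin wounds on day 10, day 12 and day 14 of healing. A gene was counted as a member when its symbol in the platform annotation was Cyp followed by a number, a single letter and a number, as in Cyp1a1 or Cyp26b1, which leaves out Cyp51. The rule found 81 genes among 19938 genes that had a probe set of their own, and each of the 81 was measured by 1 probe set. It used names alone and no measured value. All animals were C57Bl/6 mice 6 weeks old, with a 1.5 cm2 wound on the back that had removed epidermis and dermis together. For each day, RNA came from the combined wound tissue of 3 mice and was hybridised to 1 array, with the tissue around the wound and follicles at its edge avoided in the dissection, per the labels. No unwounded skin was among the samples analysed, so the days can be set against each other and not against intact skin. With 1 pool per day there is no replicate error, no test could be made, and each difference compares single pools.

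Cytochrome P450 enzymes are membrane-bound heme proteins that insert an oxygen atom from molecular oxygen into a substrate, using electrons passed on by reductase partners. Some are dedicated steps in making or breaking down steroids, bile acids, vitamin D and retinoic acid, others oxidise fatty acids and eicosanoids, and many act on foreign compounds. In skin they are known for the lipid barrier of the epidermis, for retinoic acid breakdown and for the handling of chemicals that reach the surface.

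Values are log2 expression, so a difference of 1 is 2-fold, and differences are later day minus earlier day. Since the brightness of a probe set depends on its probes, levels were not ranked between genes. A level was used only to ask whether a gene reached the median of all genes, 8.36, on at least 1 day. This held for 18 of the 81 P450 genes (22.2%), while by construction it held for 50% of all genes. The genes nearest to the limit were Cyp4f18 and Cyp3a13 inside it, with highest values of 8.98 and 8.39, and Cyp2w1 and Cyp2r1 outside it, at 8.30 and 8.19. The level was reached on every day by 14 genes. The other 4 were Cyp17a1, Cyp2g1, Cyp3a13 and Cyp4f18, which were under it on at least 1 day and so entered partly because their days differed. At the low end, 37, 38 and 38 of the 81 genes lay below the lower quartile of all probe sets on days 10, 12 and 14, against 18.2%, 18.4% and 17.7% of all genes. Exactly equal values on all 3 days were found for 28 of the 81 genes (34.6%) and for 25.7% of all genes. An equal value carries no measure of error and does not show that a gene's RNA was the same.

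Over all 81 P450 genes, 3 reached 2-fold higher on day 12 against day 10 and none 2-fold lower (background over all genes 0.787% higher and 0.13% lower). On day 14 against day 12, none reached 2-fold in either direction (background 0.0552% higher and 0.196% lower). On day 14 against day 10, 3 were at least 2-fold higher and 1 was at least 2-fold lower (background 1.25% higher and 0.512% lower). The 3 higher genes were Cyp17a1, Cyp2b19 and Cyp2g1 in both comparisons, which share the day 10 array, and the lower gene was Cyp7b1. At 1.5-fold, 9 genes were higher and 4 lower on day 14 against day 10 (background 3.11% and 2.98%). On day 12 against day 10 the counts at 1.5-fold were 6 and 2 (background 2.33% and 0.958%), and on day 14 against day 12 they were 0 and 1 (background 0.271% and 0.712%). The median difference of the 81 genes was 0.00 for each pair of days, as it was for all genes. Cyp17a1, Cyp2b19, Cyp2g1 and Cyp7b1 all belong to the 18 genes at the median level. At 1.5-fold, 5 of the 18 were higher and 2 lower on day 12 against day 10, 0 and 1 between day 12 and day 14, and 5 and 3 on day 14 against day 10. Of all genes at that level, 1.48% were 2-fold higher and 0.181% 2-fold lower on day 12 against day 10. The same shares were 0.0301% and 0.361% for day 14 against day 12, then 2.24% and 0.913% for day 14 against day 10. At 1.5-fold the percentages higher and lower, for the same pairs of days, were 4.17% and 1.64%, 0.321% and 1.19%, and 5.27% and 5.19%. Since 4 genes entered partly through the days on which they were high, nothing is read from these counts.

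**Figure D1:**
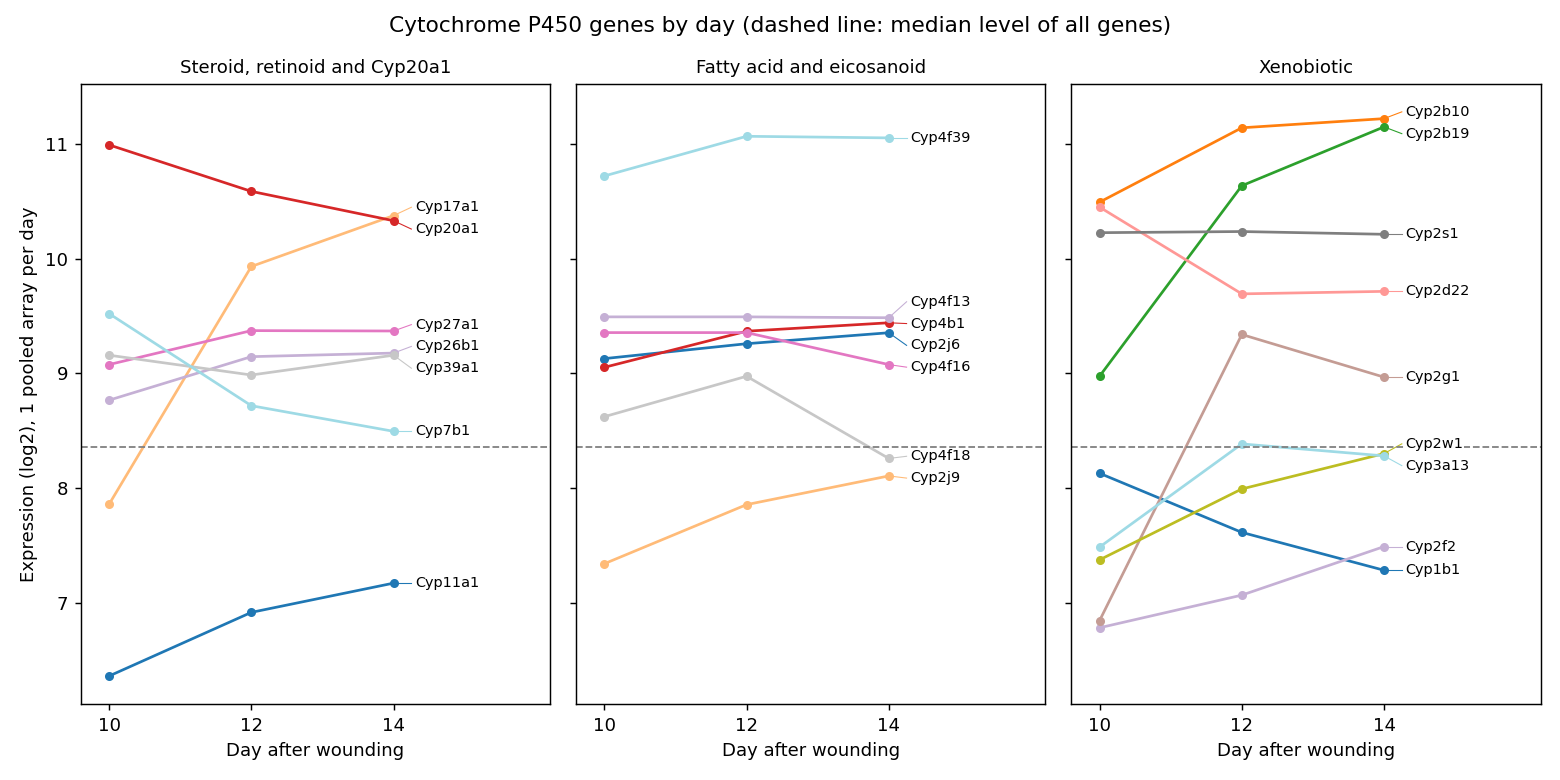
Log2 expression on days 10, 12 and 14 after wounding for the 18 P450 genes at or above the median level and the 5 others that differed by at least 1.5-fold between any pair of days. Each point is 1 array of pooled tissue and the dashed line is the median level, 8.36; Cyp17a1, Cyp2b19 and Cyp2g1 lie higher on day 12 than on day 10, and Cyp7b1, Cyp20a1, Cyp2d22 and Cyp1b1 lie lower on day 14 than on day 10.

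As a yardstick for differences under 2-fold, the 472 genes above the level with exactly 2 probe sets were used. Their probe sets disagreed by up to 0.37 on day 12 against day 10, by up to 0.25 on day 14 against day 12 and by up to 0.43 on day 14 against day 10, each value being the 95th percentile. Of the 81 P450 genes, 13, 11 and 14 differed by more than this, as did 8.09%, 7.16% and 10.5% of all genes. The yardstick says nothing of how far mice differ.

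**Figure D2:**
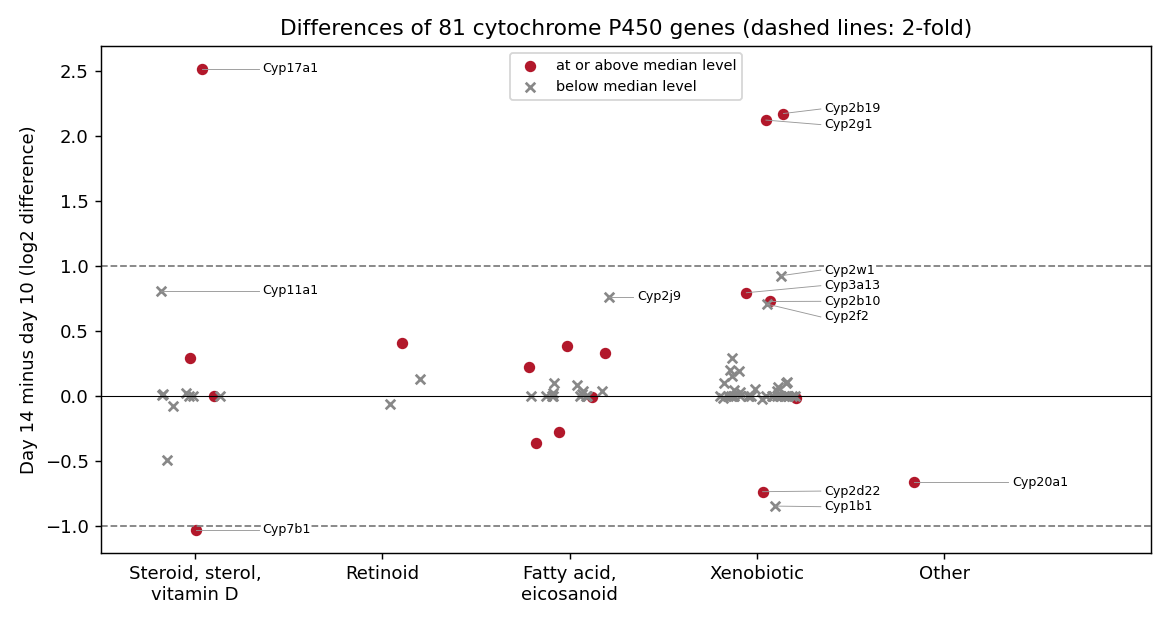
Day 14 minus day 10 difference in log2 expression for each of the 81 P450 genes, grouped by the substrates of their family. Filled points are genes at or above the median level on at least 1 day, crosses are genes below it, and dashed lines mark 2-fold; many crosses lie on 0, and Cyp17a1, Cyp2b19 and Cyp2g1 stand above the upper line.

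The steroid, sterol, bile acid and vitamin D group held 13 genes, of which 4 reached the median level. On day 14 against day 10, 2 of the 13 were at least 1.5-fold higher and 1 was lower by that much (background 3.11% and 2.98%). The median difference was 0.00. Cyp17a1, the hydroxylase and lyase of steroid synthesis that leads towards androgens and glucocorticoids, stood at 7.86 on day 10, 9.93 on day 12 and 10.38 on day 14. Against day 10 it was thus 4.21-fold higher on day 12 and 5.72-fold higher on day 14, the largest difference of any P450 gene over that interval. Between day 12 and day 14 it differed by 0.44. Cyp11a1, the side-chain cleavage enzyme that starts steroid synthesis from cholesterol, had the same direction below the median level, with 6.36 on day 10, 6.92 on day 12 and 7.17 on day 14. Its difference of 0.81 on day 14 against day 10 corresponds to 1.75-fold.

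Of the later steroidogenic steps, Cyp21a1 and Cyp11b1 gave no such difference. Both lay near the lower quartile of all probe sets, 5.91 on day 10 and 5.92 on days 12 and 14, where a difference may be missed. The adrenal steroid hydroxylase gene Cyp21a1 stood at 6.20 on each day, and Cyp11b1, for the last step of glucocorticoid synthesis, at 5.95, 5.85 and 5.87 on days 10, 12 and 14. Genes of steroid-producing glands were low: none of the 4 measured markers (Star, Nr5a1, Mc2r and Hsd3b1) reached the median level, and Star, which carries cholesterol into mitochondria, stood at 6.61, 6.61 and 6.36 on days 10, 12 and 14. Hsd3b6, a hydroxysteroid dehydrogenase gene, gave 6.30, 8.03 and 7.31 on days 10, 12 and 14. The enzyme acts beside Cyp17a1 in steroid synthesis, and its gene differed by 1.01 on day 14 against day 10 while staying below the median level. Cyp19a1, the aromatase gene, and Cyp24a1, the gene for the enzyme that inactivates vitamin D, were not analysed here.

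Among Cyp7b1, Cyp27a1, Cyp39a1 and Cyp46a1, which encode sterol hydroxylases, only Cyp7b1 differed by more than 0.43 on day 14 against day 10. Cyp7b1, the hydroxylase that clears side-chain oxysterols, stood at 9.52 on day 10, 8.72 on day 12 and 8.50 on day 14. It was lower at each step and, on day 14, 2.04-fold lower than on day 10, a difference of −1.03 that was −0.99, just short of 2-fold, under quantile normalization. Cyp27a1, the mitochondrial sterol hydroxylase that makes one of those oxysterols, stood at 9.08, 9.37 and 9.37 on days 10, 12 and 14. Its difference of 0.29 on day 14 against day 10 is within the disagreement between probe sets. Cyp39a1, another oxysterol hydroxylase, gave 9.16, 8.99 and 9.16 on the same days. Cyp46a1, the cholesterol hydroxylase known from neurons, stayed at 7.76, 7.76 and 7.78. For vitamin D, Cyp2r1, for the first activating hydroxylation, was lower at each step, at 8.19, 7.99 and 7.69, with a difference of −0.49 on day 14 against day 10. Cyp27b1, for the second activating step, held 6.12 on each array, and the vitamin D receptor gene Vdr stood at 10.06 on day 10, 10.58 on day 12 and 10.80 on day 14.

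Retinoic acid is removed by the Cyp26 enzymes, and 1 of these 3 genes reached the median level. Cyp26b1 stood at 8.77 on day 10, 9.15 on day 12 and 9.18 on day 14. Its difference of 0.38 on day 12 against day 10 was just beyond the disagreement between probe sets, and that of 0.41 on day 14 against day 10 was within it. Cyp26a1 lay below the lower quartile of the arrays at 5.87, 5.72 and 5.81, and Cyp26c1 at 6.52, 6.56 and 6.65 differed by no more than 0.13. None of the 3 genes reached 1.5-fold.

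Some other retinoid genes reached 1.5-fold. Of 16 measured genes of the pathway, 1 was at least 1.5-fold higher on day 14 against day 10 and 3 were lower by that much. The background was 3.11% and 2.98%, and the median difference of the 16 genes was −0.01. Stra6, a membrane receptor for retinol uptake, stood at 11.42 on day 10, 10.47 on day 12 and 9.74 on day 14, a difference of −1.67 on day 14 against day 10. The intracellular retinoic acid carrier gene Crabp2 and the synthetic enzyme gene Aldh1a3 differed by −0.75 and −0.70. Lrat, which esterifies retinol for storage, went the other way and differed by 0.76. The retinol-oxidising gene Dhrs9 differed by 0.52, so genes of synthesis lay in both directions.

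The fatty acid and eicosanoid group of Cyp4, Cyp2j and Cyp2u genes held 20 members, of which 6 reached the median level. None was 2-fold higher or lower for any pair of days. On day 14 against day 10, 1 was at least 1.5-fold higher (background 3.11%), and the median difference was 0.01. Cyp4f39, the mouse counterpart of the human enzyme that hydroxylates ultra-long fatty acids for the acylceramides of the skin barrier, stood at 10.72 on day 10, 11.07 on day 12 and 11.05 on day 14. Its differences of 0.35 on day 12 and 0.33 on day 14 against day 10 are within the disagreement between probe sets. Its partners in that pathway lay in the same direction. Of 11 measured genes of epidermal fatty acid and barrier lipid handling, 11 had a higher value on day 14 than on day 10, 3 of them by at least 1.5-fold, and the list's median difference was 0.44. The smallest of these differences was 0.03, for Elovl1. Of all genes at the median level, 29.6% were higher on day 14 than on day 10, as were 34.9% of all genes. This list was chosen with earlier results of these data known, so the contrast with all genes is not read as a result. The lipoxygenase gene Aloxe3, the acylceramide synthesis gene Pnpla1 and the lipid transporter gene Abca12 differed by 1.02, 0.90 and 0.85, and the lipoxygenase gene Alox12b by 0.49.

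Cyp4f18, known for oxidising the neutrophil attractant leukotriene B4, had another course. It stood at 8.62 on day 10, 8.98 on day 12 and 8.26 on day 14, and was 1.64-fold lower on day 14 than on day 12. It was the only P450 gene to reach 1.5-fold between those days. Tbxas1, the thromboxane synthase gene, which encodes a P450-type enzyme outside the naming rule, stood at 8.66, 9.01 and 8.63 on days 10, 12 and 14. Of 6 measured macrophage markers, 5 were above the level, and their median was also highest on day 12. Itgam, an integrin gene of myeloid cells, stood at 10.59, 11.12 and 10.46. The median over the 6 markers was 11.07, 11.39 and 11.24 on those days, and its part in the course of Cyp4f18 was not tested. In bulk tissue, fewer cells of a type and less RNA per cell cannot be told apart.

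Of the other fatty acid genes, Cyp4f13 held 9.49 on each day, and Cyp4f16 gave 9.36, 9.36 and 9.08 on days 10, 12 and 14. Cyp4b1, an enzyme of fatty acids and some protoxins, stood at 9.05, 9.37 and 9.44, and Cyp2j6, of the Cyp2j subfamily, at 9.13, 9.26 and 9.36. These 4 genes differed by at most 0.39 between day 14 and day 10. Cyp2j9, of the same subfamily, stayed below the median level at 7.34, 7.86 and 8.11, and its difference of 0.77 on day 14 against day 10 corresponds to 1.70-fold. Cyp2u1 was among 7 genes of this group with equal values on all 3 days.

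The largest group, the Cyp1, Cyp3 and remaining Cyp2 genes, whose families are best known for oxidising foreign compounds, held 44 members, of which 6 reached the median level and 18 had equal values on all days. On day 14 against day 10, 6 of the 44 were at least 1.5-fold higher and 2 were lower by that much (background 3.11% and 2.98%). The median difference was 0.00. Cyp2b19, grouped here by its family number, encodes an arachidonic acid epoxygenase of differentiating keratinocytes. It stood at 8.98 on day 10, 10.64 on day 12 and 11.15 on day 14. It was thus 3.16-fold higher on day 12 and 4.51-fold higher on day 14 than on day 10, and the values of days 12 and 14 differed by 0.51. Cyp2g1, best known from the olfactory mucosa, stood at 6.85 on day 10, 9.34 on day 12 and 8.97 on day 14. It was 5.63-fold higher on day 12 and 4.35-fold higher on day 14 than on day 10, and it differed by −0.37 between day 12 and day 14. Of 6 measured olfactory markers, 1 reached the median level, Adcy3, at 9.37 on each day. Omp, the olfactory marker protein gene, stood below that level at 7.14, 7.20 and 7.24 on days 10, 12 and 14. The channel gene Cnga2, at 5.34, 5.36 and 5.37, lay below the lower quartile of each array. The largest difference of the 6 on day 14 against day 10 was 0.10, and low values limit what this shows. The part of such cells in the Cyp2g1 values was not tested.

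Cyp2b10, the subfamily member inducible through the nuclear receptor Car in mouse liver, stood at 10.49 on day 10, 11.14 on day 12 and 11.22 on day 14, and was 1.66-fold higher on day 14 than on day 10. Cyp2b10 and Cyp2b19 are related in sequence, and probe sequences were not used here, so signal from the transcript of a close relative cannot be told apart from a gene's own. The remaining relatives Cyp2b9, Cyp2b13 and Cyp2b23 stood at 5.93, 5.25 and 6.52 on day 10 and differed by no more than 0.01 between any days. The relatedness reaches into the promoters. The 250 bases before the start of each gene are printed for these genes because both were higher on later days and both are in the RefSeq promoter table (GRCm38.p6), which holds 62 of the 81 P450 genes. Cyp2b19 is read at chr7:26756892-26757141 and Cyp2b10 at chr7:25897408-25897657, both on the plus strand, 5′ to 3′, and capitals mark runs of at least 10 bases that are identical in an alignment of both in which gaps at the ends carry no penalty.
Cyp2b19: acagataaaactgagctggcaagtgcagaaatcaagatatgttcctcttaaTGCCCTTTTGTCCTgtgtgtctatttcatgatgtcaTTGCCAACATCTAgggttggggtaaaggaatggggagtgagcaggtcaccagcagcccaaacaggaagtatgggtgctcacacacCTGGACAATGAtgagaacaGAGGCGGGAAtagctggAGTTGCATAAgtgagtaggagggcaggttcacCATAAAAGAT
Cyp2b10: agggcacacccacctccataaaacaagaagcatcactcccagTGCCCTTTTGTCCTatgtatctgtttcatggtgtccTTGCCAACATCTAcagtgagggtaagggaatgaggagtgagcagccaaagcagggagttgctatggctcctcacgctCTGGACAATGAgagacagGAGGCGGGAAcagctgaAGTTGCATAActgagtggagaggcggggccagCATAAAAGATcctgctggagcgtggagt
Of 228 aligned base pairs, 175 were identical (76.8%), and the longest of the 6 capitalised runs had 14 bases. The stretch ggagtgagcag is also in both windows but was not capitalised. The search covered 5 motifs on both strands. The TATA box letters TATAAA were in neither window. The AP-1 site, written TGANTCA with N for any base, was in neither. The nuclear receptor site AAGGTCA and the box CCAAT were also absent from both windows. GCGTG, the core of the Ah receptor's response element, was in the Cyp2b10 window at 2 places and not in that of Cyp2b19, and it was in 28.2% of the 27025 genes' windows. Over the 62 P450 windows, TATAAA was found in 37.1%, against 13.0% of all genes' windows, and GCGTG in 13 of the 62. Many P450 genes lie in clusters of relatives, so the 62 windows cannot be counted as independent. These are matches of letters and not binding sites.

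**Figure D3:**
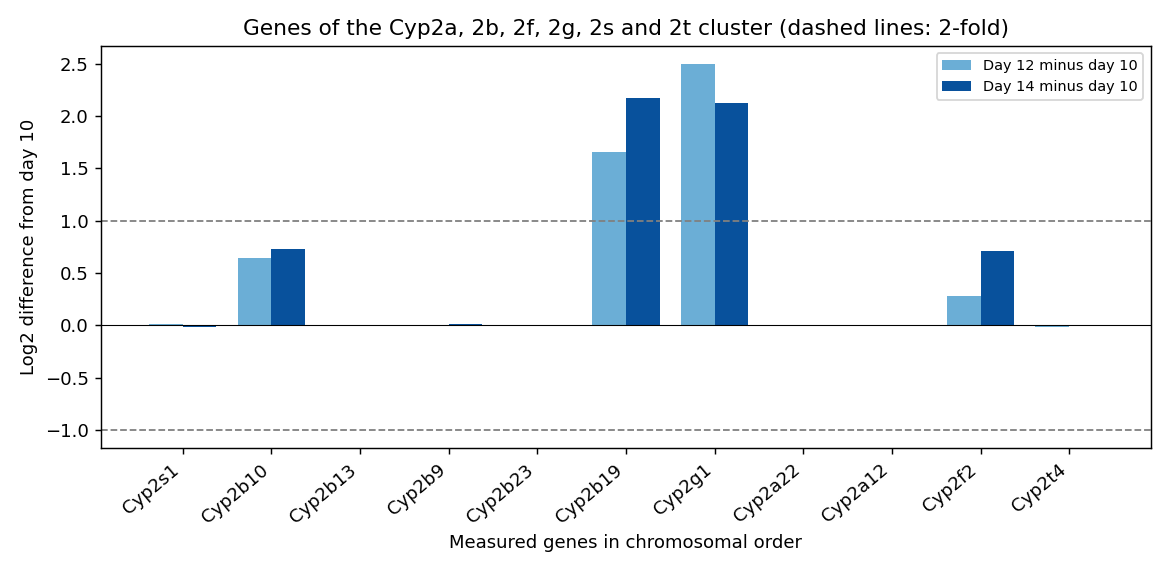
Differences in log2 expression from day 10, on day 12 (light) and day 14 (dark), for the 11 measured genes of the Cyp2 cluster from Cyp2s1 to Cyp2t4, in the order of the genes on the chromosome. Cyp2b19 and its neighbour Cyp2g1 pass 2-fold (dashed) on both days, Cyp2b10 and Cyp2f2 lie between 0.28 and 0.73, and the other 7 genes lie at or near 0.

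Cyp2b19 and Cyp2g1 are next to each other. In the GRCm38.p6 gene table, P450 genes separated by at most 5 other protein-coding genes were taken as a cluster, a limit chosen after the layout was seen. The cluster from Cyp2s1 to Cyp2t4 holds 13 P450 genes, of which 11 were measured and 4 reached the median level. Cyp2b19 and Cyp2g1 have no other protein-coding gene between them, and they are the 2 genes of the cluster that passed 2-fold. Cyp2b10, at the other side of the Cyp2b genes, and Cyp2f2, a gene known from lung club cells, were higher by 1.5-fold or more on day 14 against day 10. Cyp2f2 did so below the median level, at 6.78, 7.07 and 7.49 on days 10, 12 and 14. The remaining 7 measured genes differed by less than 0.1 between day 14 and day 10. One of them, Cyp2s1, an epithelial P450 that acts on retinoids and eicosanoids, stood at 10.23, 10.24 and 10.21. The Cyp2c cluster had 12 measured genes, with none at the median level and none at 1.5-fold. On day 14 against day 10, 1 of 6 measured genes of the Cyp2j cluster was 1.5-fold higher. In the Cyp2d cluster 1 of 8 was lower by that much, and in that from Cyp1a2 to Cyp11a1 1 of 3 was higher. The remaining clusters with at least 2 measured genes had none. With a background of 3.11% higher and 2.98% lower, nothing is read from the absence in a small cluster.

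Lower values on later days were found for Cyp2d22, Cyp1b1 and Cyp20a1. Cyp2d22 stood at 10.45 on day 10, 9.69 on day 12 and 9.72 on day 14, and was 1.66-fold lower on day 14 than on day 10. Its 7 measured neighbours of the Cyp2d cluster were all below the median level. Cyp20a1, which has no settled substrate and was placed in no family group, gave 10.99, 10.59 and 10.33 on days 10, 12 and 14 and was 1.58-fold lower on day 14 than on day 10. Cyp1b1, which oxidises estradiol and polycyclic hydrocarbons and is a target of the Ah receptor, stood below the median level at 8.13, 7.62 and 7.29. It was 1.80-fold lower on day 14 than on day 10.

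The receptor genes did not vary in parallel with Cyp1b1. Ahr, which encodes the Ah receptor, stood at 9.53 on day 10, 10.60 on day 12 and 10.89 on day 14, and its difference was 1.36 on day 14 against day 10. Its repressor gene Ahrr gave 6.77, 7.46 and 7.61, below the median level. Cyp1a1, the classical Ah receptor target, stood at 5.81, 5.84 and 5.84, below the lower quartile of each array, and so did Cyp1a2. Of 13 measured genes of the xenobiotic receptor list, 2 were at least 1.5-fold higher on day 14 against day 10 and none was lower by that much. The background was 3.11% and 2.98%. Aldh3a1, an aldehyde dehydrogenase gene of the same response that stayed below the median level, and Rxra differed by 0.58 and 0.33. Tiparp, also of this list and above the median level, differed by −0.08, and Nqo1, below that level, held 7.65 on each day.

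In the rest of the group, Cyp3a13, an enzyme of steroids and drugs in liver and intestine, stood at 7.49 on day 10, 8.39 on day 12 and 8.28 on day 14. It was 1.87-fold higher on day 12 than on day 10 and reached the median level on day 12 alone. Cyp2w1, whose substrates are not well settled, stayed just under that level at 7.38, 7.99 and 8.30 and was 1.90-fold higher on day 14 than on day 10. Cyp2e1, the ethanol-inducible enzyme of the liver, held 5.52 on each day. Hepatocyte markers were low too: none of 6 measured reached the median level, and their median was 6.06, 6.07 and 6.10 on days 10, 12 and 14. The 49 P450 genes not named by the rule for names lay between 4.79 and 7.47. Their differences ran from −0.12 to 0.30 over all pairs of days, and 26 of them had equal values throughout.

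Defining genes of the labelled tissue were well above the level. All 5 basal epidermis markers and all 6 fibroblast markers were above the median level on each day, with medians of 11.81 and 13.17 on day 14. Of 6 measured adipocyte markers, 2 reached the level. These were Lpl, a lipase gene, at 11.30, 11.94 and 12.02 on days 10, 12 and 14, and Fabp4 at 11.21, 11.31 and 10.87, and the adipokine gene Adipoq lay below the lower quartile of each array. Differentiated epidermis and sebaceous gland markers had higher values on day 14 than on day 10, as Cyp17a1, Cyp2b19 and Cyp2g1 did. Of 7 measured markers of differentiated epidermis, 7 were above the level and 7 were higher on the last day than on the first, which held for 29.6% of all genes at the level. Their median stood at 11.34, 12.22 and 12.49 on days 10, 12 and 14. The cornified envelope gene Flg2 stood at 8.70, 10.71 and 11.36, higher at each step as Cyp2b19 and Cyp17a1 were. Of 12 sebaceous gland markers, 7 reached the level and 12 were higher on the last day than on the first, which held for 34.9% of all genes. Their median stood at 7.23, 8.68 and 7.89 on days 10, 12 and 14. Elovl3, which elongates fatty acids of sebum, stood at 6.36, 8.68 and 8.11, and Fa2h, a fatty acid hydroxylase gene, at 7.48, 9.73 and 9.42, highest on day 12 as Cyp2g1 was. Of the 12, 7 were lower on day 14 than on day 12, 4 were higher (Krt79, Scd1, Dgat2 and Plin5) and 1 was equal. Since the lists were chosen with earlier results of these data known, nothing is read from their shares against all genes. The part of these markers in the P450 values was not tested. The 8 markers of hair shaft and inner root sheath had a later course, with a median of 7.28 on day 10, 7.40 on day 12 and 8.34 on day 14.

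**Figure D4:**
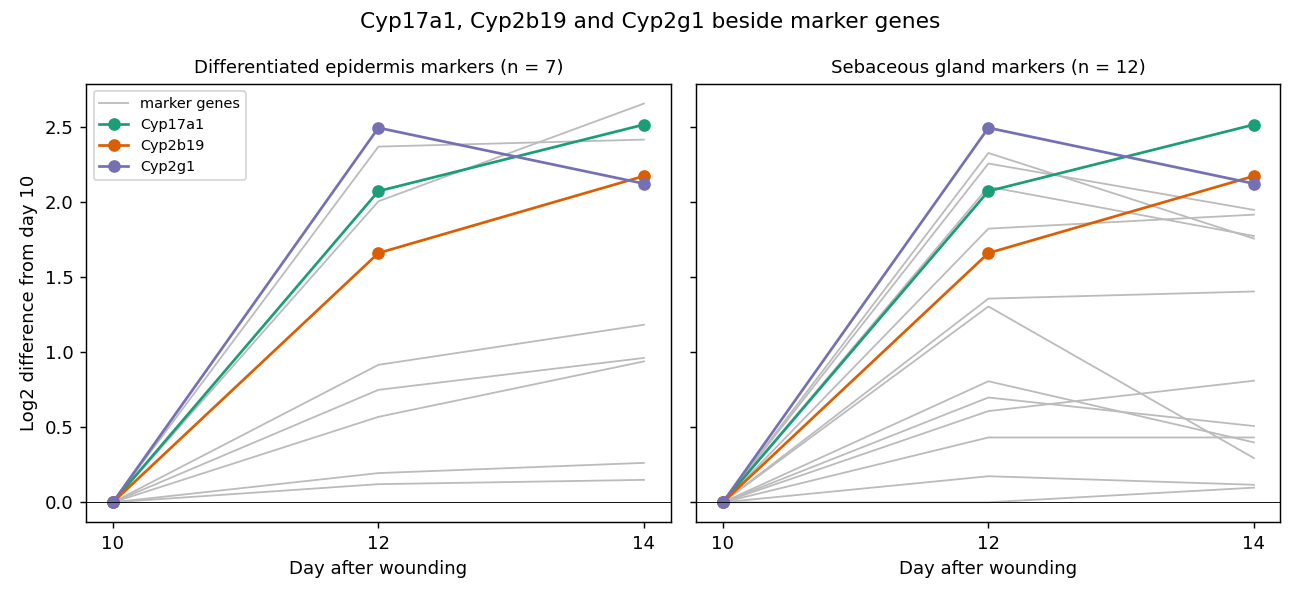
Log2 difference from day 10 for Cyp17a1, Cyp2b19 and Cyp2g1 (coloured) beside 7 marker genes of differentiated epidermis (left, grey) and 12 of the sebaceous gland (right, grey), 1 array per day. On day 14 the P450 genes lie among the epidermal markers that differ most. They lie above every sebaceous marker, with 2.12 for Cyp2g1 against 1.95 for Fa2h, the highest of these. Cyp2g1 is lower on day 14 than on day 12, as are 7 of the 12 sebaceous markers, while 4 others, among them Krt79, are higher.

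Partner lists covered the enzymes that serve or follow P450 reactions. For the counts at 1.5-fold on day 14 against day 10, the background over all genes was 3.11% higher and 2.98% lower. Of 10 listed genes for electron donors and their cofactors, 7 were measured, which leaves out Por, a reductase gene, Fdxr and Fdx1l. None of the 7 was at least 1.5-fold higher on day 14 against day 10 and 1 was lower by that much. This was Cyb5b, the mitochondrial outer membrane cytochrome b5, at 11.46 on day 10, 11.04 on day 12 and 10.85 on day 14. Pgrmc2, a heme-binding partner, differed by 0.46, and Cyb5r3, a cytochrome b5 reductase gene, and Pgrmc1 by −0.28 and −0.14. Of 18 measured conjugating enzymes and epoxide hydrolases, 1 was at least 1.5-fold higher and 2 were lower by that much, with a median of −0.07. The glutathione transferase genes Gsta4 and Gstp1 differed by −1.23 and −0.87, and the microsomal transferases Mgst2 and Mgst1 by 0.87 and −0.57. Of the 22 measured genes of steroid and vitamin D partners, 3 were at least 1.5-fold higher and none was lower by that much, with a median of 0.00. They were Hsd3b6, Vdr and Hsd17b2, a steroid-oxidising enzyme gene that differed by 0.80, and the estrogen receptor gene Esr1 differed by 0.53. Cyp51, a P450 of cholesterol synthesis outside the naming rule, stood at 10.05, 9.89 and 10.05 on days 10, 12 and 14, and the prostacyclin synthase gene Ptgis at 7.74, 7.92 and 8.13.

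**Figure D5:**
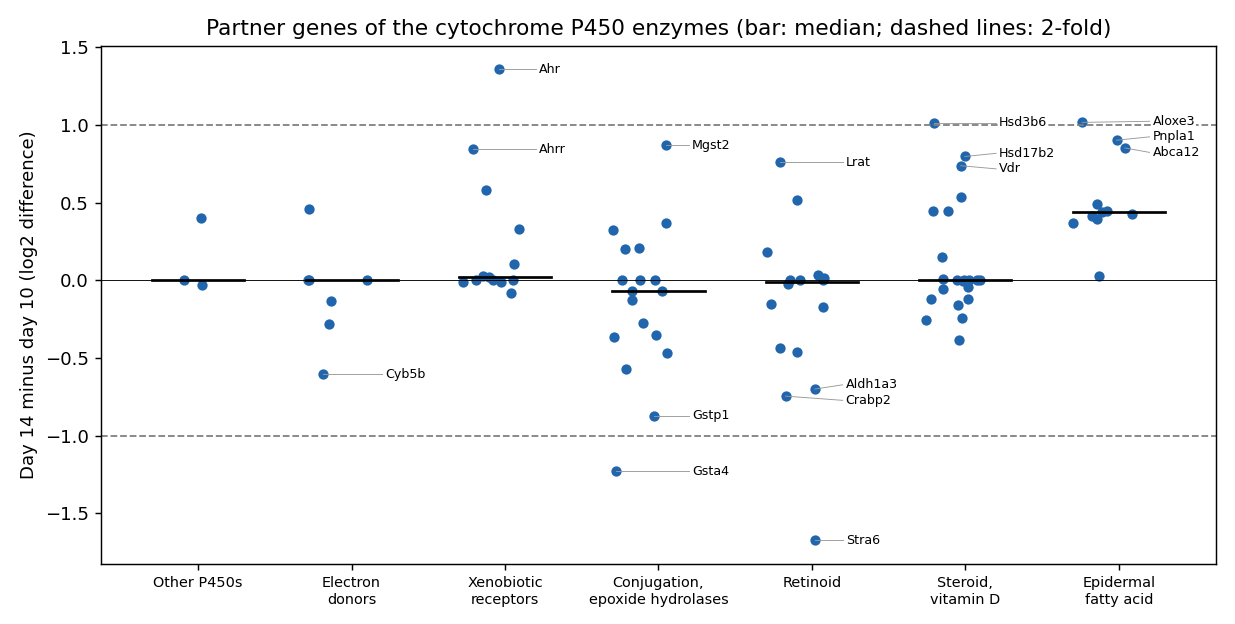
Day 14 minus day 10 difference in log2 expression for the measured genes of each partner list, with 1 point per gene, a bar at the list's median and dashed lines at 2-fold. Ahr, Hsd3b6 and Aloxe3 lie above the upper line and Gsta4 and Stra6 below the lower one, and the epidermal fatty acid list alone has its median well away from 0, at 0.44.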

How the data were processed

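RNA from 3 pools of healing mouse skin, 1 per day, was amplified from 250 ng of total RNA and labelled with biotin, per the labels. The values analysed are log2 expression per probe set as deposited by the authors. The submitters' processing notes list RMA and Partek 6.6 but give neither a role, the log2 scale was read from the range of 4.37 to 14.09, and no genome build is given in the sources used here. Detection above background is not given in the values used. The number of arrays limits the precision.

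Values were used as deposited. Of 35556 probe sets, 21789 carried 1 symbol in the platform annotation, 1621 carried several and 12146 were not listed there. Probe sets with 1 symbol were averaged per symbol. All 81 P450 genes matched the GRCm38.p6 gene table by Entrez identifier with 0 symbols changed. Another 7 symbols that fit the rule, such as Cyp4v3, occur only on probe sets shared with other genes and were left out. Counts used fixed sizes of 2-fold and 1.5-fold, without p-values. Named genes are all P450 genes at the median level or differing by 1.5-fold between any days, plus fixed key enzymes, and in each partner list the 4 with the largest difference between day 14 and day 10, beside key partners and markers chosen after their values were seen. Members and lists were chosen with earlier results of these data known. Counting was tested on simulated data. Python 3.11.15 and, for quantile and cyclic loess scaling, limma 3.58.1 were used.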

Additional observations from a re-analysis of the deposited data

How the results depend on the processing

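No paired analysis was possible because each day had 1 array, and for the same reason no array could be left out. The 96 differences of the 32 named P450 genes were recomputed with arrays centred on their medians, with quantile normalization and with cyclic loess, and none changed by more than the spread between probe sets and none of those at 2-fold changed sign. Taking the brightest probe set per gene could not move these differences, since each P450 gene has 1 probe set of its own. Adding probe sets of several symbols did not move them either, since none of the 32 named genes is on such a probe set. The largest shift was 0.05, under quantile normalization. The count of 18 genes at the median level ranged from 17 to 23 under the alternatives tried for it. It was 23 when the median was taken over probe sets in place of genes. With the mean over the arrays in place of the highest value it was 17, as it was with the brightest probe set per gene. With no level filter, the median difference of the P450 genes was 0 for day 12 and 0 for day 14, each against day 10, where the 18 genes above the level had 0.31 and 0.26. All genes at the level had medians of 0 and −0.02. Since some of the 18 entered partly through the days on which they were high, nothing is read from this contrast. When genes were instead required to have a mean among the highest 25%, 6 P450 genes were left, of which 1 was 2-fold higher on day 12 and 1 on day 14 against day 10, 0 were 2-fold lower on day 14 against day 10, and the medians were 0.18 and 0.16. Quantile normalization left 0 genes 2-fold lower on day 14 against day 10, since Cyp7b1 then differed by −0.99. At 1.5-fold among the 18 genes, 5 were higher and 2 lower on day 12 against day 10, 1 was lower between day 12 and day 14, and 5 were higher and 3 lower on day 14 against day 10. Low values limit what can be said of the genes below the lower quartile.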
